A study of Mus musculus with 8 samples.

Results

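The 5 genes described here are Zfp36, Zfp36l1, Zfp36l2, Btg1 and Btg2, which encode regulators of mRNA decay. They were taken by name from the deposited gene count table, where they are 5 of 32499 rows. All 5 were among the 12970 genes that passed the filter on low counts. The 5 genes, and the gene lists set beside them, were chosen with earlier results of these data known. Their shares called are therefore descriptions. The study profiled total RNA of mouse pre-B cells in 4 groups, each with 2 biological replicates. One group expressed TAF15-ZNF384 and another TCF3-ZNF384, fusions of the zinc finger protein ZNF384 found in human B cell leukaemia, a further group expressed full-length ZNF384, and the control carried the empty vector. The 3 ZNF384 proteins carried an HA tag.

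All 4 groups share 1 background. The cells came from bone marrow of C57BL/6 mice lacking Arf (Arf-/-), a tumour suppressor of the p53 pathway, and were transduced with lentivirus and sorted for GFP before RNA extraction. The proteins were therefore added to cells that keep their own Zfp384 gene. The labels give neither the age of the mice nor the number of cell lines behind a group, so the p-values measure the spread between these cultures.

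ZFP36, ZFP36L1 and ZFP36L2 are CCCH zinc finger proteins that bind AU-rich elements in the 3′ untranslated region (UTR) of mRNAs and recruit the CCR4-NOT complex, which shortens the poly(A) tail and starts decay. BTG1 and BTG2 have no such RNA-binding fingers. They bind the CNOT7 and CNOT8 deadenylases and promote poly(A) shortening, and both slow proliferation when overexpressed. In mouse B cell precursors ZFP36L1 and ZFP36L2 are known to restrain the cell cycle around V(D)J recombination, and BTG1 is recurrently deleted in human B cell precursor leukaemia.

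All 5 genes are protein coding with 2 exons in the GENCODE vM1 annotation of the mm9 build. Zfp36 lies on the minus strand at chr7:29161803-29164274, Zfp36l1 on the minus strand at chr12:81208747-81214000, and Zfp36l2 on the minus strand at chr17:84583271-84587287. Btg1 lies on the plus strand at chr10:96079635-96085447 and Btg2 on the minus strand at chr1:135971747-135975697. Zfp36l1 is overlapped on the other strand by Gm17591. Gm17591 had no row under that name among the deposited counts. The strand setting of the count step is not given in the sources used here. Any reads from Gm17591 therefore cannot be told apart from those of Zfp36l1. The pseudogene rows Btg1-ps1, Btg1-ps2 and Zfp36l1-ps held 0 counts in all 8 libraries, and the relatives Zfp36l3 and Btg4 held 1 count each.

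The Zfp36 family mRNAs carry in their own 3′ UTRs the element that the family binds. The heptamer TATTTAT, the DNA form of the AU-rich core, was searched on the transcribed strand of the longest annotated 3′ UTR, and a match within the nonamer TTATTTATT was counted as the longer element. Every match is shown with 7 bases on each side and the heptamer in capitals, 5′ to 3′ along the mRNA, in mm9 coordinates.
Zfp36 site 1, chr7:29161989-29162009, minus strand: ggcccttTATTTATgacgact
Zfp36 site 2, chr7:29161974-29161994, minus strand: acgacttTATTTATtgtatta
Zfp36 site 3, chr7:29161949-29161969, minus strand: tttatagTATTTATatatatt
Zfp36l1 site 1, chr12:81209413-81209433, minus strand: caaaacgTATTTATtgccaaa
Zfp36l1 site 2, chr12:81209372-81209392, minus strand: ttgttcaTATTTATcgggatg
Zfp36l1 site 3, chr12:81209158-81209178, minus strand: gttggatTATTTATtttagaa
Zfp36l2 site 1, chr17:84584258-84584278, minus strand: tttaactTATTTATtatcttg
Zfp36l2 site 2, chr17:84584210-84584230, minus strand: catactgTATTTATcgagtat
Zfp36l2 site 3, chr17:84584024-84584044, minus strand: tatgtaaTATTTATttcatta
Btg2 site 1, chr1:135973830-135973850, minus strand: gaagagcTATTTATacatgtt
Each of the 3 Zfp36 family genes had 3 heptamers, 1 of them within a nonamer. Zfp36 carried them in a 3′ UTR of 774 bases, where 1.05% of 2955 other genes with a 3′ UTR within 25% of that length had at least 3. The same share was 3.38% for Zfp36l1 and 3.38% for Zfp36l2, whose 3′ UTRs span 1829 and 1822 bases. Btg2 had 1 heptamer in 2199 bases, and 39.1% of other genes of like length had at least 1. Btg1 had 0 in 4170 bases. A match describes the letters and does not show that the site is bound.

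**Figure D1:**
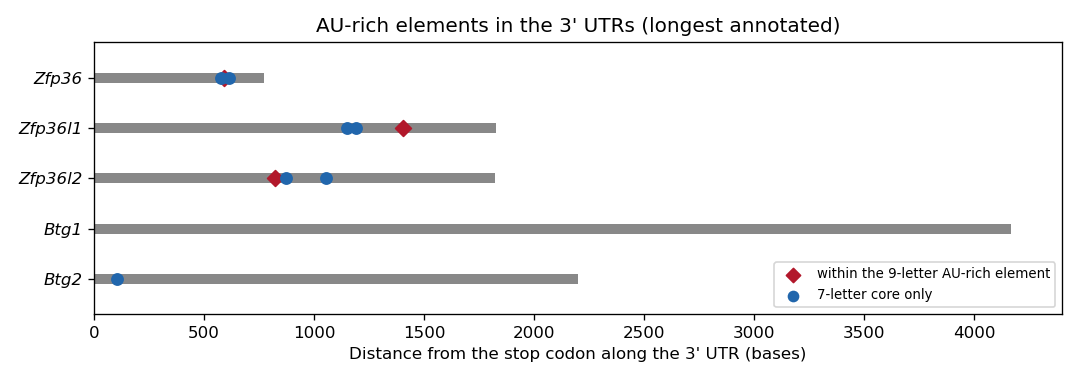
Position of each AU-rich heptamer along the longest annotated 3′ UTR of the 5 genes, in bases from the stop codon (x axis), with 1 grey bar per gene. Red diamonds are heptamers within the nonamer and blue circles are the heptamer alone. Zfp36, Zfp36l1 and Zfp36l2 each have 3 matches, Btg2 has 1 near the stop codon and Btg1 has 0.

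Promoter sequence is shown for the genes that fell over 2-fold with full-length ZNF384, a choice made from their values in these data. The sequences are the 250 bases before the start site, from RefSeq with its GRCm38.p6 build, 5′ to 3′ along the gene. They were available for 4 of the 5 genes. Capitals mark matches on either strand to TGACGTCA (the cAMP response element), its core TGACG, the E-box forms CAGCTG (balanced) and CAGGTG (unbalanced), the run AAAAAAA, the TATA box as TATAAA, the CCAAT box, the Ets core as CCGGAAG and the EGR site as GCGTGGGCG or as GCGGGGGCG, and also to the CArG box and the NF-kB site. Matches may overlap.
Zfp36, chr7:28379229-28379478, minus strand: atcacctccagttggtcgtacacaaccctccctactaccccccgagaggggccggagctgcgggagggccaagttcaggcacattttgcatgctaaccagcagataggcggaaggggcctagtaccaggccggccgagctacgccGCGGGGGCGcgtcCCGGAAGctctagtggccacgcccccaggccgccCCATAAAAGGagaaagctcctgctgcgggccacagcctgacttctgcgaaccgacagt
Zfp36l1, chr12:80113014-80113263, minus strand: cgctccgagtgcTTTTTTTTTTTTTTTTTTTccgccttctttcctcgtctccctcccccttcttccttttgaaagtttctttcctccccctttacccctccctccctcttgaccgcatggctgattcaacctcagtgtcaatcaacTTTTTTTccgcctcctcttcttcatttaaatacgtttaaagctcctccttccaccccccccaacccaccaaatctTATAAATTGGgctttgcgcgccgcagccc
Btg2, chr1:134079156-134079405, minus strand: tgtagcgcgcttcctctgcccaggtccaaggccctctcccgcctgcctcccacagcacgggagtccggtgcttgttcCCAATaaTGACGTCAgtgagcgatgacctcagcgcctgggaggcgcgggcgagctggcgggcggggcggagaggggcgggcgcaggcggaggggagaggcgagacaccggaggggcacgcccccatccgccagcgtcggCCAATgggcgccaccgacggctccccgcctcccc
Zfp36 had 1 CArG box, the motif of serum response factor, which 1.47% of all 32851 promoters of that length hold. It also had 1 Ets core (6.91% of promoters) and 1 EGR site (3.06%). Btg2 had 1 full cAMP response element (1.55% of promoters), which contains the core on both strands, and 2 CCAAT boxes (33.8%). Zfp36l1 had 14 matches to AAAAAAA (10.8% of promoters), in 2 separate runs, with TATAAA (12.4%) and CCAAT overlapping near the start site. Btg1, not printed, had 2 cores of the cAMP response element (17.8% of promoters), 1 CCAAT and 1 TATAAA. Neither E-box nor the NF-kB site was found in these 4 windows. None of the motifs was found in every printed window. The shares are of all promoters and were not matched for base content. G and C made up 64.8% of the Zfp36 window, 48.4% of the Zfp36l1 window and 73.2% of the Btg2 window. A match describes the letters and does not show that the site is bound or that these genes share a regulator.

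The libraries held 9381954 to 41483660 counts each. Reads at Zfp384, the mouse counterpart of the constructs, gave 184.6 and 162.3 normalised counts scaled to library size (CPM) in TAF15-ZNF384 cells, 511.3 and 450.2 CPM in TCF3-ZNF384 cells and 51.1 and 90.2 CPM in full-length ZNF384 cells, against 24.0 and 21.6 CPM in empty vector cells. The 10 pre-B markers summed to between 4068 and 4500 CPM in every library, while single markers differed between groups. Rag1 was below 1 CPM on average in full-length ZNF384 and empty vector cells. Igll1, a surrogate light chain gene, averaged 781 CPM with TAF15-ZNF384, 484 CPM with TCF3-ZNF384 and 973 CPM with full-length ZNF384, against 723 CPM in empty vector cells. Blnk, a signalling adaptor gene, averaged 89.9, 120.8 and 34.9 CPM in those 3 groups, against 41.9 CPM in empty vector cells, and their part in the results was not tested. The 8 myeloid markers in the table summed to at most 1.88 CPM, the 6 T and NK markers to at most 1.29 CPM and the 6 stromal markers to at most 1.66 CPM. The 5 erythroid and megakaryocyte markers in the table summed to between 3.45 and 6.74 CPM. The libraries also differed in the share of 5 abundant non-coding RNAs, which touches the results below. These took 28.1% and 29.6% of counts in TAF15-ZNF384 cells and 18.5% and 24.5% in TCF3-ZNF384 cells. In full-length ZNF384 cells they took 10.9% and 12.5%, against 27.2% and 33.2% in empty vector cells.

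Mean CPM of all 5 genes over the 8 libraries was above that of at least 91.5% of tested genes, without correction for exon length. Per kb of merged exon, the scale on which genes can be compared, Btg2 had the highest mean level over the 8 libraries at 139 CPM per kb and Zfp36 followed at 108 CPM per kb. Zfp36l1 had a mean level of 55.3, Btg1 of 45.8 and Zfp36l2 of 44.5 CPM per kb.

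All 5 genes were lowest or near lowest in full-length ZNF384 cells. All 5 genes fell against the empty vector, where 9.87% of tested genes fell, 10.8% rose and 20.6% changed either way, by edgeR's quasi-likelihood test with Benjamini-Hochberg adjustment over all tested genes at 0.05. The log2 fold changes were near −1.2 for Zfp36, Zfp36l1 and Btg2, −0.92 for Btg1 and −0.37 for Zfp36l2, against a median of 0.03 over all tested genes. The fusions gave other patterns. Against the empty vector, 1 of the 5 fell and 0 rose with TAF15-ZNF384, where 6.01% of tested genes fell, 5.01% rose and 11.0% changed either way. With TCF3-ZNF384, 2 rose and 1 fell, where 16.2% of tested genes rose, 17.0% fell and 33.3% changed either way. These 3 comparisons share the empty vector libraries, and the 5 genes were chosen with earlier results of these data known. The libraries of the groups compared did not overlap in CPM for 4 of the 5 genes with TAF15-ZNF384, 4 with TCF3-ZNF384 and 5 with full-length ZNF384, against 59.3%, 71.0% and 58.4% of all tested genes, so the count of non-overlapping genes says little by itself.

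Zfp36 encodes tristetraprolin, the founding member of its family and an immediate early gene product. Its normalised count was 249.6 and 218.4 CPM in TAF15-ZNF384 cells, 185.9 and 231.6 CPM in TCF3-ZNF384 cells and 87.3 and 108.5 CPM in full-length ZNF384 cells, against 205.6 and 257.6 CPM in empty vector cells. Both full-length ZNF384 libraries lay below the other 6, whose groups overlapped one another. With full-length ZNF384 Zfp36 fell by 1.24 ± 0.15 on the log2 scale against the empty vector (SE, n = 2 each, edgeR adjusted p = 0.00011). It was higher by 1.26 ± 0.15 with TAF15-ZNF384 (edgeR adjusted p = 5.54e-05) and by 1.10 ± 0.15 with TCF3-ZNF384 (edgeR adjusted p = 6.64e-05) than with full-length ZNF384. The fusions against the empty vector gave 0.02, with a 95% interval of −0.30 to 0.33 for TAF15-ZNF384, and −0.15, with an interval of −0.46 to 0.16 for TCF3-ZNF384, neither past the threshold.

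Zfp36l1 encodes a paralog that, with Zfp36l2, acts in B cell development. It had 208.3 and 185.3 CPM in TAF15-ZNF384 cells, 213.2 and 250.2 CPM in TCF3-ZNF384 cells and 59.6 and 80.9 CPM in full-length ZNF384 cells, against 143.7 and 178.3 CPM in empty vector cells. Full-length ZNF384 was the lowest group, empty vector next, and both fusion groups lay above the empty vector without overlap. Zfp36l1 fell by 1.20 ± 0.15 on the log2 scale with full-length ZNF384 (edgeR adjusted p = 0.000217) and rose by 0.53 ± 0.15 with TCF3-ZNF384 (edgeR adjusted p = 0.0174), each against the empty vector. The rise with TCF3-ZNF384 lost significance without TCF3-ZNF384 replicate 2, at 0.41, or without empty vector replicate 1, at 0.38. With TAF15-ZNF384 the log2 fold change against the empty vector was 0.29 ± 0.15, which did not pass (edgeR adjusted p = 0.244). Against full-length ZNF384 the log2 fold change was 1.49 ± 0.15 with TAF15-ZNF384 and 1.73 ± 0.15 with TCF3-ZNF384, both past the threshold.

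Zfp36l2 followed another order. It had 206.1 and 184.8 CPM in TAF15-ZNF384 cells, 115.3 and 141.6 CPM in TCF3-ZNF384 cells and 133.4 and 132.3 CPM in full-length ZNF384 cells, against 168.8 and 175.5 CPM in empty vector cells. TAF15-ZNF384 libraries were the highest, and the TCF3-ZNF384 and full-length ZNF384 libraries overlapped at the low end. It fell by 0.42 ± 0.11 on the log2 scale with TCF3-ZNF384 (edgeR adjusted p = 0.00938) and by 0.37 ± 0.11 with full-length ZNF384 (edgeR adjusted p = 0.0257) against the empty vector. The first call was lost without TCF3-ZNF384 replicate 1, at −0.28, or without empty vector replicate 2, at −0.39. The second was lost without empty vector replicate 1, at −0.40, or replicate 2, at −0.35. Zfp36l2 was the 1 gene of the 5 past the threshold between the fusions, where 4.17% of tested genes fell, 5.91% rose and 10.1% changed either way. With TCF3-ZNF384 it fell by 0.60 ± 0.11 on the log2 scale against TAF15-ZNF384 (edgeR adjusted p = 0.003). Leaving out TAF15-ZNF384 replicate 1 gave −0.52 and leaving out TCF3-ZNF384 replicate 1 gave −0.47, and neither value passed.

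**Figure D2:**
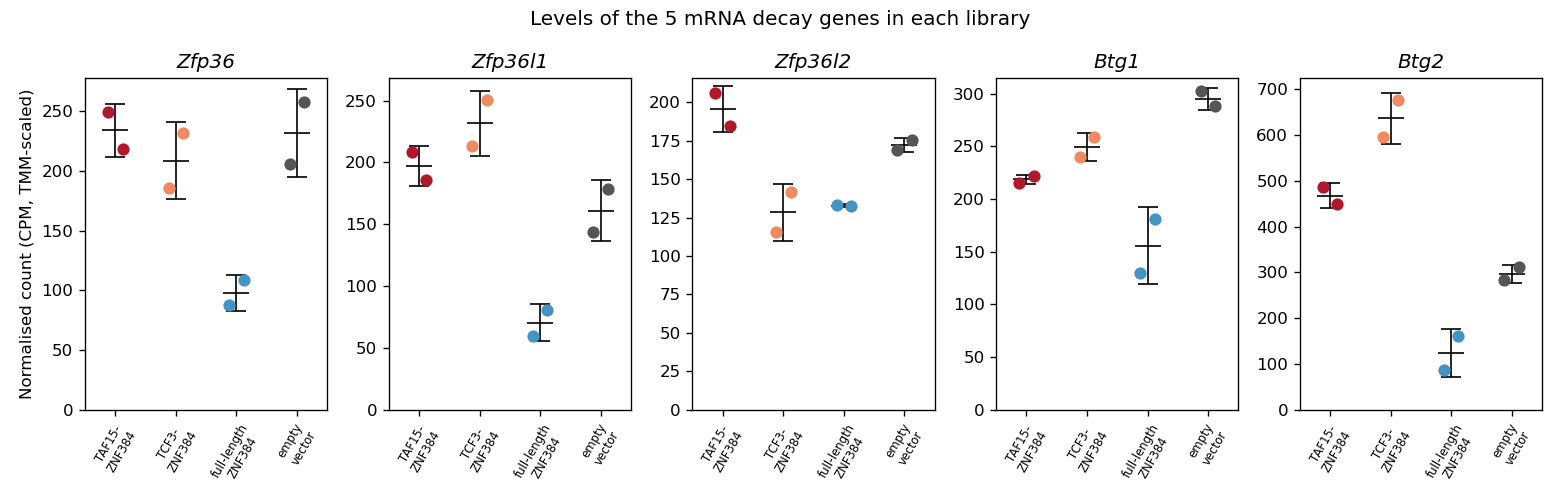
Normalised count (CPM, y axis from 0) of each gene in each of the 8 libraries. Points are libraries, and the black bar and whiskers are the group mean and SD (n = 2). Full-length ZNF384 is the lowest group for Zfp36, Zfp36l1, Btg1 and Btg2, whereas Zfp36l2 is as low with TCF3-ZNF384.

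Btg1 encodes an antiproliferative cofactor of CNOT7 and CNOT8. It had 215.3 and 221.8 CPM in TAF15-ZNF384 cells, 239.8 and 258.8 CPM in TCF3-ZNF384 cells and 130.0 and 181.3 CPM in full-length ZNF384 cells, against 302.2 and 287.8 CPM in empty vector cells. Both empty vector libraries lay above the other 6, and no 2 groups overlapped. Btg1 fell by 0.92 ± 0.13 on the log2 scale with full-length ZNF384 (edgeR adjusted p = 0.000256) and by 0.43 ± 0.13 with TAF15-ZNF384 (edgeR adjusted p = 0.0471), each against the empty vector. The second call lies close to the threshold. It was lost under 4 other settings, and without any 1 of the 6 TAF15-ZNF384, TCF3-ZNF384 and empty vector libraries it was −0.47 to −0.40 and did not pass. With TCF3-ZNF384 the log2 fold change was −0.24 ± 0.13 (edgeR adjusted p = 0.166), not past the threshold; without full-length ZNF384 replicate 1 it was −0.24 and past the threshold, as without replicate 2. Against full-length ZNF384, Btg1 was higher by 0.49 ± 0.13 with TAF15-ZNF384 and by 0.68 ± 0.13 with TCF3-ZNF384, and the first of these did not pass without TAF15-ZNF384 replicate 1 (0.51) or replicate 2 (0.47). It was 0.29 without full-length ZNF384 replicate 1 and 0.78 without replicate 2, both past the threshold.

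Btg2, a p53 target that is also an immediate early gene, covered the widest range of the 5. It had 486.6 and 448.3 CPM in TAF15-ZNF384 cells, 596.5 and 676.3 CPM in TCF3-ZNF384 cells and 86.6 and 160.3 CPM in full-length ZNF384 cells, against 283.3 and 310.8 CPM in empty vector cells. The 4 groups did not overlap, with TCF3-ZNF384 highest and full-length ZNF384 lowest. Btg2 rose by 1.10 ± 0.26 on the log2 scale with TCF3-ZNF384 (edgeR adjusted p = 0.0167) and fell by 1.27 ± 0.26 with full-length ZNF384 (edgeR adjusted p = 0.0155) against the empty vector. The rise was lost without any 1 of the 4 TCF3-ZNF384 and empty vector libraries, at 1.01 to 1.19, and the fall without empty vector replicate 2, at −1.20. Its size was −0.90 without full-length ZNF384 replicate 1 and −1.81 without replicate 2. With TAF15-ZNF384 the log2 fold change was 0.65 ± 0.26 (edgeR adjusted p = 0.162), and without full-length ZNF384 replicate 1 or 2 it was 0.66 and past the threshold.

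The spread between the full-length ZNF384 libraries was larger for Btg2 than for Zfp36l2. Btg2 averaged 123 ± 52.1 CPM there (SD, n = 2) and Zfp36l2 averaged 133 ± 0.75 CPM. Replicate 1, which had the lower count at Zfp384, was the lower of the pair for Zfp36, Zfp36l1, Btg1 and Btg2, and the part of the Zfp384 level in this was not tested. The 5 non-coding RNAs also took a smaller share in this group. With those RNAs left out, Zfp36 was −1.26, Zfp36l1 −1.22, Zfp36l2 −0.39, Btg1 −0.94 and Btg2 −1.29 against the empty vector on the log2 scale. All 5 genes passed, where 1339 of all tested genes fell. Under total-count scaling without those RNAs, 4 of the 5 genes fell, where 1257 of all tested genes fell. Btg2, at −1.28, did not pass there. In sorted bulk cultures, fewer cells of a type and less RNA per cell cannot be told apart.

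Against full-length ZNF384, all 5 genes rose with TAF15-ZNF384, where 15.4% of tested genes rose, 17.9% fell and 33.3% changed either way. With TCF3-ZNF384, 4 of 5 rose, where 22.2% of tested genes rose, 23.4% fell and 45.6% changed either way. The libraries did not overlap for 5 genes with TAF15-ZNF384 and 4 with TCF3-ZNF384, against 66.3% and 72.8% of all tested genes. Reads at Zfp384 were lower with full-length ZNF384, at 51.1 and 90.2 CPM, than with either fusion. They gave 184.6 and 162.3 CPM with TAF15-ZNF384 and 511.3 and 450.2 CPM with TCF3-ZNF384. The kind of construct and its level cannot be told apart in these comparisons. Btg2 showed the largest of these differences among the 5, 1.92 ± 0.27 on the log2 scale with TAF15-ZNF384 and 2.37 ± 0.27 with TCF3-ZNF384. Zfp36l2 was the exception with TCF3-ZNF384, at −0.05 with a 95% interval of −0.28 to 0.19. Between the fusions, the other 4 genes did not pass: the values for TCF3-ZNF384 over TAF15-ZNF384 were −0.16 for Zfp36, 0.24 for Zfp36l1, 0.19 for Btg1 and 0.45 for Btg2, with intervals that include 0. Btg2 passed, at 0.44, without full-length ZNF384 replicate 1 or without replicate 2. The libraries of the fusions did not overlap for 4 of the 5 genes, all but Zfp36, against 57.2% of all tested genes.

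**Figure D3:**
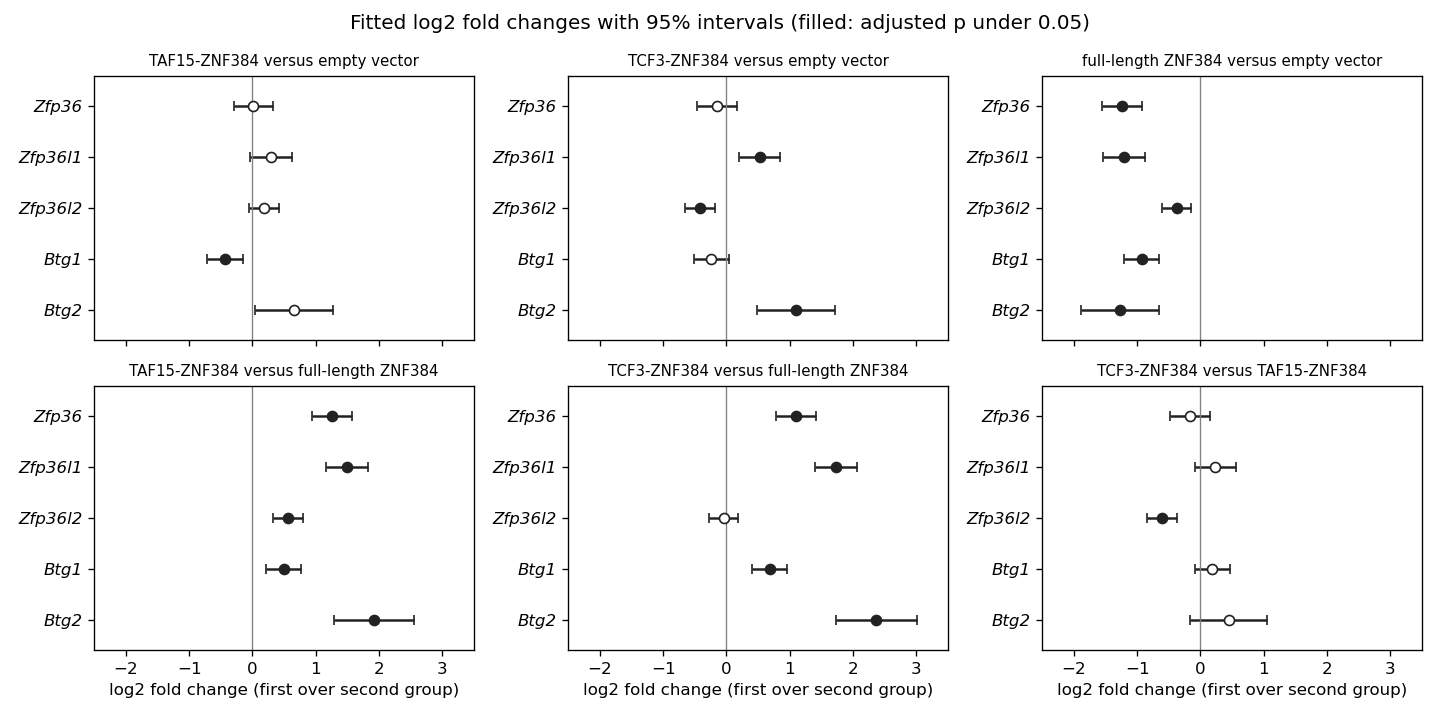
Fitted log2 fold change (x axis, first-named group over second) of the 5 genes in each of the 6 comparisons, with 95% intervals. Filled points passed an adjusted p of 0.05. All 5 points are filled and left of 0 for full-length ZNF384 against the empty vector, and all 5 are filled and right of 0 for TAF15-ZNF384 against full-length ZNF384.

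The order of group levels differed between genes. For Zfp36 it ran TAF15-ZNF384, empty vector, TCF3-ZNF384, full-length ZNF384 from high to low, and only the last step passed the test. For Zfp36l1 and Btg2 it ran TCF3-ZNF384, TAF15-ZNF384, empty vector, full-length ZNF384, again with only the last step past the threshold. For Zfp36l2 it ran TAF15-ZNF384, empty vector, full-length ZNF384, TCF3-ZNF384, and the step from empty vector to full-length ZNF384 passed. For Btg1 it ran empty vector, TCF3-ZNF384, TAF15-ZNF384, full-length ZNF384, and the last step passed. These calls are those of the fit of all 8 libraries, and some changed in a fit of only the 2 groups compared. There Btg2 passed between TAF15-ZNF384 and empty vector (0.65) and between the fusions, but not at its last step (−1.29). Every step of Btg1 and the first step of Zfp36l1 also passed there.

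Summing CPM per kb within each family shows how the makeup of the family changed. The 3 Zfp36 genes summed to 252 ± 22.0 CPM per kb in TAF15-ZNF384 cells, 231 ± 32.1 in TCF3-ZNF384 cells and 116 ± 13.2 in full-length ZNF384 cells, against 232 ± 30.1 in empty vector cells (SD, n = 2 each). Zfp36 was the largest part in every group, at 51.8%, 50.5% and 47.1% of the sum in those 3 groups and 55.6% in empty vector cells. Zfp36l1 made up 26.2%, 33.7% and 20.2% of the sum in those 3 groups, against 23.2% in empty vector cells. Zfp36l2 made up 22.0%, 15.8% and 32.7%, against 21.2% in empty vector cells. Its larger share with full-length ZNF384 came with a lower level of its own, 37.6 against 48.8 CPM per kb in empty vector cells.

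The 2 Btg genes summed to 214 ± 8.94 CPM per kb in TAF15-ZNF384 cells, 282 ± 23.2 in TCF3-ZNF384 cells and 76.1 ± 26.2 in full-length ZNF384 cells, against 167 ± 5.06 in empty vector cells. Btg2 made up 79.6%, 82.3% and 58.3% of that sum in the 3 groups, against 64.7% in empty vector cells. These sums and shares are descriptions of 2 libraries a group and were not tested. They also rest on the annotated exon lengths, 5010 bases for Btg1 and 2743 bases for Btg2. Before scaling by length, mean CPM in empty vector cells was 295 for Btg1 and 297 for Btg2.

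**Figure D4:**
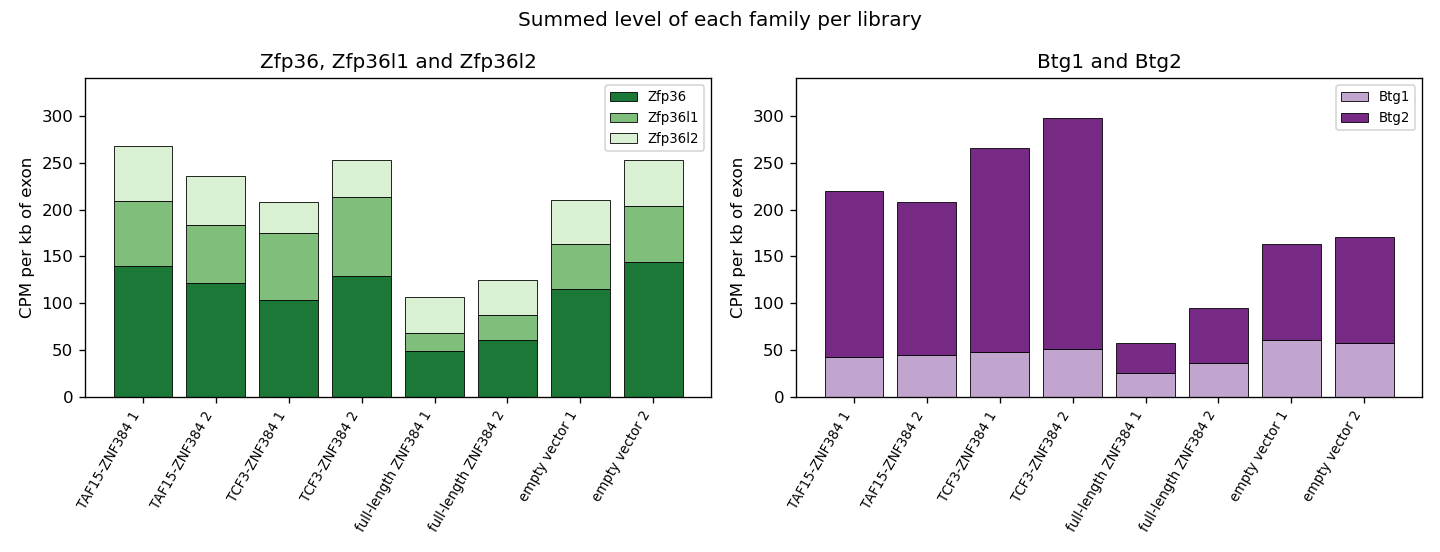
Stacked level (CPM per kb of exon, y axis) of the 3 Zfp36 genes (left) and the 2 Btg genes (right) in each library. Both sums are lowest in the 2 full-length ZNF384 libraries, and Btg2 fills most of the Btg sum in the fusion libraries.

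Across the 8 libraries the 5 genes did not all vary together. The Pearson correlation of log2 CPM was 0.98 between Zfp36l1 and Btg2, 0.93 between Zfp36 and Zfp36l1 and 0.22 between Zfp36l2 and Btg2. These values, like those that follow, describe 8 libraries in 4 groups and share those libraries.

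Among 8635 other genes with a mean of at least 5 CPM, the 4 most like Zfp36 were Jun (r = 0.999), Jund, Fos (r = 0.993 for both) and Flcn (r = 0.992). Jun and Fos encode subunits of the AP-1 transcription factor. Jun had 649 and 473 CPM in TAF15-ZNF384 cells, 318 and 533 CPM in TCF3-ZNF384 cells and 30.1 and 53.2 CPM in full-length ZNF384 cells, against 377 and 693 CPM in empty vector cells. Its 8 libraries fell in the same order as those of Zfp36, over a wider range. Relb, an NF-kB subunit (r = 0.996), Abtb2, H2-Q4 and Klf2 were most like Zfp36l1. Dok3, an adaptor of B cell signalling (r = 0.992), Abtb1, Tbc1d17 and Susd6 were most like Btg2.

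Zfp36l2 was most like Hnrnpdl (r = 0.983), which encodes an RNA-binding protein, followed by Hes5, Etv6 and Leng1. Hnrnpdl had 110 and 108 CPM in TAF15-ZNF384 cells, 70.1 and 81.4 CPM in TCF3-ZNF384 cells and 76.6 and 72.6 CPM in full-length ZNF384 cells, against 92.2 and 98.4 CPM in empty vector cells. Btg1 was most like Tcp11l2 (r = 0.972), Sesn2, Rell1 and Gripap1. Sesn2 encodes a stress-induced inhibitor of mTORC1.

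The regulators act through the CCR4-NOT complex. This list and the gene lists below were chosen with earlier results of these data known. Of 11 tested genes of the CCR4-NOT complex, 0 passed with TAF15-ZNF384 by edgeR, DESeq2 or limma-voom (1 had an unadjusted p under 0.05 by edgeR), while 1 rose and 1 fell with TCF3-ZNF384 and likewise with full-length ZNF384. The shares called were 0%, 18.2% and 18.2%, against 11.0%, 33.3% and 20.6% of all tested genes in these 3 comparisons. By edgeR, 4 of the 11 had an unadjusted p under 0.05 with TCF3-ZNF384, and 4 with full-length ZNF384. With 11 genes in the list, small gaps between these shares say little. The risen gene was Cnot1, the scaffold, at 0.31 ± 0.10 with TCF3-ZNF384 and 0.46 ± 0.10 with full-length ZNF384 on the log2 scale. The fallen gene was Cnot8, a deadenylase that BTG proteins bind, at −0.46 ± 0.13 and −0.55 ± 0.12. Without empty vector replicate 2 neither passed in either comparison, and with TCF3-ZNF384 the counts were also 0 without either TCF3-ZNF384 library. The 1 rise with TCF3-ZNF384 was 0 without empty vector replicate 1 and 3 without either full-length ZNF384 library, and that with full-length ZNF384 was 2 without full-length ZNF384 replicate 2. The list's median log2 fold change was −0.03, 0.04 and 0.17 with TAF15-ZNF384, TCF3-ZNF384 and full-length ZNF384, against 0.01, 0.01 and 0.03 over all tested genes.

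Of the 3 tested other BTG and TOB genes, Tob1 fell with full-length ZNF384, to 17.5 CPM against 61.8 CPM in empty vector cells (log2 fold change −1.83 ± 0.18, edgeR adjusted p = 5.7e-05). That is 33.3% of a list of 3, with a median of −0.20, against 20.6% of all tested genes. TOB1 is a relative of BTG1 and BTG2 that also binds the deadenylases. With the fusions 0 of the 3 passed by edgeR (0 with TAF15-ZNF384 and 2 with TCF3-ZNF384 had an unadjusted p under 0.05), although DESeq2 called 1 with TCF3-ZNF384, as did edgeR without TCF3-ZNF384 replicate 2 or empty vector replicate 1.

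Among 15 tested other AU-rich element binding and decay factors, 1 fell with TAF15-ZNF384, 6 rose and 2 fell with TCF3-ZNF384, and 2 rose and 2 fell with full-length ZNF384. The shares called were 6.67%, 53.3% and 26.7%, against 11.0%, 33.3% and 20.6% of all tested genes, and the list's medians were 0.08, 0.25 and 0.05. Zc3h12d, which encodes a relative of the endonuclease Regnase-1, fell in all 3: to 60.8 CPM with TAF15-ZNF384, 29.0 CPM with TCF3-ZNF384 and 52.1 CPM with full-length ZNF384, against 122 CPM in empty vector cells. Zc3h12a, which encodes Regnase-1, fell by 1.22 ± 0.16 on the log2 scale with full-length ZNF384. Khsrp and Tia1, which encode proteins that bind AU-rich RNA, rose by 0.48 ± 0.10 and 0.43 ± 0.09 with TCF3-ZNF384. The count of 6 was 3 without TCF3-ZNF384 replicate 1 or empty vector replicate 1, and the fall with TAF15-ZNF384 was lost without any 1 of the TAF15-ZNF384, TCF3-ZNF384 or empty vector libraries. The 2 falls with TCF3-ZNF384 were 1 without TCF3-ZNF384 replicate 1 or either empty vector library. The 2 rises with full-length ZNF384 were 0 without either empty vector library and 1 without any 1 TCF3-ZNF384 or full-length ZNF384 library, and 2 genes rose with TAF15-ZNF384 without either full-length ZNF384 library.

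Of 34 tested genes of poly(A) shortening, decapping and exonucleolytic decay, 2 fell with TAF15-ZNF384, 1 rose and 8 fell with TCF3-ZNF384, and 3 rose with full-length ZNF384. These are 5.88%, 26.5% and 8.82% of the list, below the 11.0%, 33.3% and 20.6% of all tested genes, and the medians were −0.11, −0.19 and 0.10. Of the 8, those with the smallest adjusted p were Pabpc4 and Pabpc1, which encode poly(A) binding proteins, at −0.71 ± 0.11 and −0.54 ± 0.11, and Exosc2, an exosome subunit, at −0.69 ± 0.14. Pan3, of the PAN2-PAN3 deadenylase, rose by 0.54 ± 0.10. The count of 8 was 3 without TCF3-ZNF384 replicate 1, 5 without replicate 2, 4 without empty vector replicate 1 and 5 without replicate 2. The 3 rises with full-length ZNF384 became 9 without full-length ZNF384 replicate 2 and 0 without any other 1 library, and 4 genes fell there without full-length ZNF384 replicate 1. The 2 falls with TAF15-ZNF384 were 6 (and 2 genes rose) without either full-length ZNF384 library and 0 without any other 1 library. The 1 rise with TCF3-ZNF384 was 3 without either full-length ZNF384 library and 2 without empty vector replicate 1. Under total-count scaling without the 5 non-coding genes, 5 rose and 5 fell with TCF3-ZNF384.

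Of 23 tested mRNAs known to be bound or destabilised by the Zfp36 family, 2 rose and 4 fell with TAF15-ZNF384, 3 rose and 8 fell with TCF3-ZNF384, and 6 rose and 10 fell with full-length ZNF384. The shares called were 26.1%, 47.8% and 69.6%, against 11.0%, 33.3% and 20.6% of all tested genes. The list's medians were 0.20, −0.31 and −0.25, and with full-length ZNF384 the list held both rises and falls. The part of the 5 genes in these changes was not tested. With full-length ZNF384, Bcl2, an inhibitor of apoptosis, rose to 371 CPM, against 164 CPM in empty vector cells. The D-type cyclins Ccnd3 and Ccnd2 also rose there, by 0.95 ± 0.10 and 0.75 ± 0.10 on the log2 scale, and Plk3 fell to 2.87 CPM, against 18.5 CPM in empty vector cells. Bcl2 fell with both fusions, by 0.79 ± 0.11 with TAF15-ZNF384 and by 1.69 ± 0.11 with TCF3-ZNF384, and Vegfa, a growth factor gene, fell to 87.1 CPM with TAF15-ZNF384 and 52.9 CPM with TCF3-ZNF384, against 150.3 CPM in empty vector cells. Ccnd2 rose with TAF15-ZNF384, by 0.69 ± 0.10, and with TCF3-ZNF384, by 0.91 ± 0.10. Il10 averaged 2.22 CPM with TCF3-ZNF384 and had 0 counts in empty vector cells, and Ier3 had 0 counts with full-length ZNF384 and averaged 0.731 CPM in empty vector cells. The 10 falls with full-length ZNF384 were 6 without full-length ZNF384 replicate 1, and 6 of the listed genes are also immediate early genes. With TAF15-ZNF384 the 2 rises were 4 without either full-length ZNF384 library and 1 without TAF15-ZNF384 replicate 1, either TCF3-ZNF384 library or empty vector replicate 1, and the 4 falls were 2 without either TAF15-ZNF384 library or without empty vector replicate 1.

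Zfp36 and Btg2 belong by background to the immediate early genes. Btg2 is also a target of p53, and Btg1 is a target of FOXO factors. The lists of these classes were likewise chosen with earlier results of these data known. Of 24 other tested immediate early genes, 21 fell with full-length ZNF384, with a median log2 fold change of −1.98, and 13 fell without full-length ZNF384 replicate 1. With TAF15-ZNF384, 1 fell, and with TCF3-ZNF384, 1 rose and 7 fell. The shares called were 4.17% with TAF15-ZNF384, 33.3% with TCF3-ZNF384 and 87.5% with full-length ZNF384, against 11.0%, 33.3% and 20.6% of all tested genes, and the medians with the fusions were 0.07 and −0.35. The count of 7 was 1 without TCF3-ZNF384 replicate 1, 2 without empty vector replicate 2 and 4 without either TAF15-ZNF384 library, and it was 1 under total-count scaling without the 5 non-coding genes. The 1 rise with TCF3-ZNF384 was lost without either TCF3-ZNF384 library, and 2 genes rose with TAF15-ZNF384 without empty vector replicate 2.

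Of 17 tested p53 targets, 7 fell with full-length ZNF384, among them Bbc3, an apoptosis activator, at −1.60 ± 0.13, and Cdkn1a, a cell cycle inhibitor, at −0.80 ± 0.12. With TAF15-ZNF384 2 rose, Pidd1 and Cdkn1a, and with TCF3-ZNF384 6 rose and 1 fell. The shares called were 11.8% with TAF15-ZNF384, 41.2% with TCF3-ZNF384 and 41.2% with full-length ZNF384, against 11.0%, 33.3% and 20.6% of all tested genes, and the medians were 0.32, 0.10 and −0.35. The 1 fall with TCF3-ZNF384 was 2 without either full-length ZNF384 library and 0 without any other 1 library. The 6 rises were 2 without TCF3-ZNF384 replicate 1, 1 without replicate 2 and 0 without empty vector replicate 1, and Pidd1 and Cdkn1a did not pass without TAF15-ZNF384 replicate 1 or either empty vector library. The 2 rises with TAF15-ZNF384 were 1 without either TCF3-ZNF384 library and 6 without either full-length ZNF384 library.

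Of 17 tested FOXO targets and quiescence genes, 4 rose and 1 fell with TAF15-ZNF384, 7 rose with TCF3-ZNF384, and 1 rose and 6 fell with full-length ZNF384. The shares called were 29.4%, 41.2% and 41.2%, against 11.0%, 33.3% and 20.6% of all tested genes, and the medians were 0.30, 0.25 and −0.29. Rag1, which encodes part of the enzyme that cuts antigen receptor genes, rose to 7.97 CPM with TAF15-ZNF384 and to 61.3 CPM with TCF3-ZNF384, against 0.375 CPM in empty vector cells. Bcl6, a transcriptional repressor, fell by 1.29 ± 0.12 on the log2 scale with full-length ZNF384. The 6 falls were 11 without full-length ZNF384 replicate 2, the 1 rise with full-length ZNF384 was 3 without replicate 1, and the 4 rises with TAF15-ZNF384 were 2 without either TAF15-ZNF384 library or empty vector replicate 1. The 1 fall with TAF15-ZNF384 was 0 without TAF15-ZNF384 replicate 2 and 2 without either full-length ZNF384 library. One further change in the FOXO list was 1 fall with TCF3-ZNF384 without empty vector replicate 1.

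**Figure D5:**
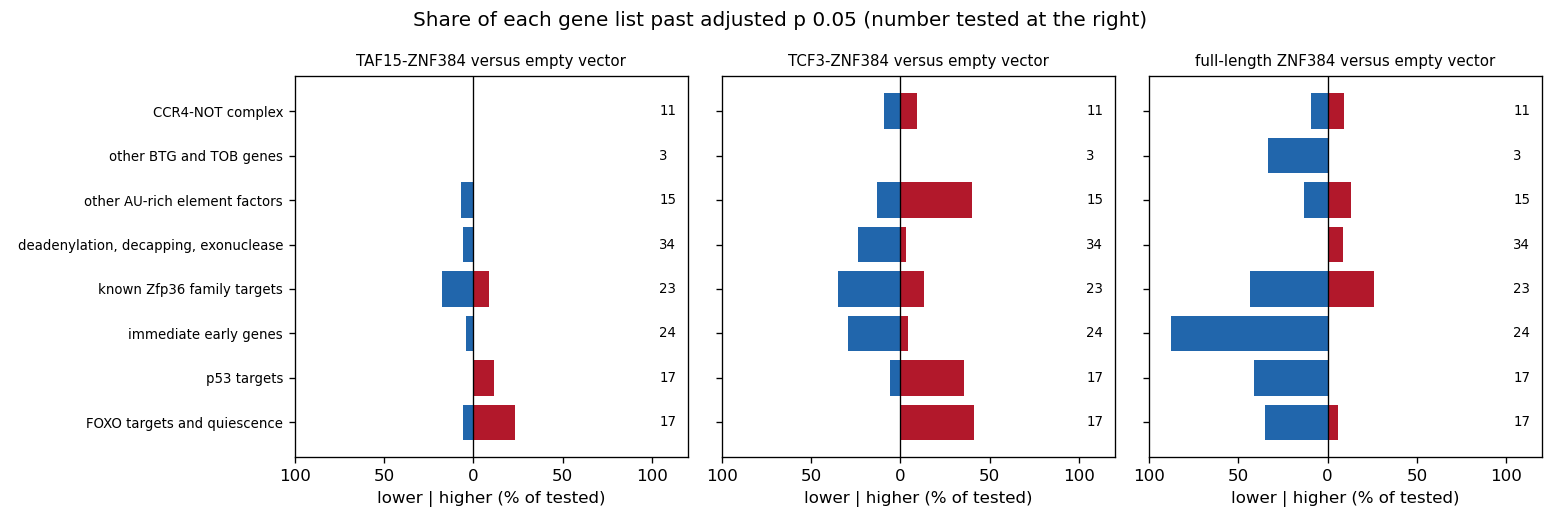
Share of the tested members of each gene list (x axis, percent) that rose (red, right) or fell (blue, left) in the 3 comparisons with the empty vector, with the number tested at the right of each panel. The longest bar is the 21 of 24 immediate early genes that fell with full-length ZNF384, and the CCR4-NOT bars are short in all 3 panels.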

How the data were processed

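The deposited values are raw counts per gene. Per the submitters' processing notes, the authors counted reads with HTSeq 0.6.1p1 and used the mm9 build. The aligner, gene annotation and strand setting are not given in the sources used here, and the libraries were stranded total RNA, per the labels' protocols. Genes were filtered with filterByExpr and the 8 libraries fitted together in edgeR 4.0.16 (R 4.3.3) with TMM scaling and 1 term per group. The fit had 4 residual degrees of freedom, and its biological coefficient of variation was 0.0958. For each of the 6 comparisons between groups it used the quasi-likelihood F test, 2-sided, with Benjamini-Hochberg adjustment over all 12970 tested genes and a cutoff of 0.05, and only genes beyond it are said to have risen or fallen. CPM values are on TMM-scaled library sizes, and log2 fold changes are ± SE. Alternatives used limma 3.58.1 and DESeq2 1.42.0. The fit was tested on simulated data. Replicates differed by more than sampling noise in every group. In each list, up to 3 genes per direction with the smallest adjusted p against the empty vector were eligible to be named, and for each of the 5 genes the 4 most correlated. The 5 genes and the lists were chosen with earlier results of these data known.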

Additional observations from a re-analysis of the deposited data

How the results depend on the processing

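Each of the 30 fold changes was recomputed under 18 alternatives, 8 of which left out 1 library, and 493 of the 540 values kept their direction and their side of the threshold. All 5 genes were lower with full-length ZNF384 than with the empty vector in every alternative, with 3 to 5 of them called when 1 library was left out. Values are log2 fold changes.

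Btg1 with TAF15-ZNF384 against the empty vector lost its call with DESeq2 size factors (−0.42), limma-voom (−0.43), a minimum of 2 CPM in 2 libraries (−0.42) and total-count scaling without the 5 non-coding genes (−0.32), and ranged from −0.47 to −0.40 with 1 library left out. Btg2 with full-length ZNF384 against the empty vector lost its call in a fit of those 2 groups alone (−1.29) and under total-count scaling (−1.28), and ranged from −1.81 to −0.90 with 1 library left out. The fit of 2 groups alone called Btg2 with TAF15-ZNF384 (0.65) and Btg1 with TCF3-ZNF384 (−0.24) against the empty vector, and Zfp36l1 (0.24), Btg1 (0.19) and Btg2 (0.45) with TCF3-ZNF384 against TAF15-ZNF384. No filter on low counts called Btg2 with TAF15-ZNF384 against the empty vector (0.63) and with TCF3-ZNF384 against TAF15-ZNF384 (0.46). The causes were not tested. Total-count scaling moved the median of all genes by up to 0.17.

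Among values not past the threshold, Zfp36 with TAF15-ZNF384 against the empty vector turned to −0.0086 without a filter, and ranged from −0.14 to 0.19 with 1 library left out, including −0.08 without TAF15-ZNF384 replicate 1. Zfp36 with TCF3-ZNF384 ranged from −0.32 to 0.024, with 0.0070 without TCF3-ZNF384 replicate 1 and 0.024 without empty vector replicate 2. Zfp36l2 with TCF3-ZNF384 against full-length ZNF384 turned to 0.12 under total-count scaling, and ranged from −0.18 to 0.12.

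With 1 library left out, values against the empty vector with TCF3-ZNF384 ranged from 0.38 to 0.69 for Zfp36l1, −0.58 to −0.28 for Zfp36l2, −0.30 to −0.18 for Btg1 and 1.01 to 1.19 for Btg2. Btg2 with TAF15-ZNF384 ranged from 0.59 to 0.72, and Zfp36l2 with full-length ZNF384 from −0.40 to −0.35. Btg1 with TAF15-ZNF384 against full-length ZNF384 ranged from 0.29 to 0.78. With TCF3-ZNF384 against TAF15-ZNF384, Zfp36l2 ranged from −0.77 to −0.47 and Btg2 from 0.35 to 0.53. A lone library left in a group is assumed to vary like the other groups.

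The number of genes called was 1430 with TAF15-ZNF384, 4317 with TCF3-ZNF384 and 2675 with full-length ZNF384 against the empty vector, 4320 and 5916 with TAF15-ZNF384 and TCF3-ZNF384 against full-length ZNF384, and 1308 between the fusions. With 1 library left out these ranged from 403 to 2802, 2572 to 5382, 1048 to 3791, 2210 to 5343, 3924 to 6551 and 411 to 2363. The fit of 2 groups alone called 2699 with TAF15-ZNF384 and 1753 with full-length ZNF384 against the empty vector, and 2552 between the fusions. With every library thinned to the depth of the shallowest, 2049 genes were called with full-length ZNF384 against the empty vector, and 5 of the 5 genes fell.

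Replicate numbers are shared between groups, and the count columns of the ZNF384 groups carry matching replicate tags that the empty vector columns lack. The labels name no pairing, and deviations of same-numbered libraries correlated at 0.014 to 0.22. For the empty vector, the block below rests on the replicate numbers alone. A replicate block changed no call of the 5 genes: with full-length ZNF384 against the empty vector it gave −1.24 for Zfp36 and −1.30 for Btg2, and it called 2999 genes there. With 2 libraries a group, small differences were not detectable, and the smallest exact permutation p of 2 against 2 libraries is 0.333.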
